A study of Mus musculus with 16 samples.

Results

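The 10 genes described here encode the receptors and ligands with which phagocytes take up dying cells, and the signals that restrain that uptake: Mertk, Axl, Tyro3, Gas6, Pros1, Cd36, Mfge8, Cd47, Sirpa and Itgam. They were chosen by name for this function, with earlier results of these data known. All 10 were found among the 22298 mouse genes counted. Levels were measured in abdominal tumors of 8 vehicle and 8 IL-33 treated samples, all from wild-type 615-line mice, the strain in which MFC cells, a mouse forestomach carcinoma line, grow as syngeneic tumors. Mice aged 6 weeks, matched for sex, received 500000 MFC cells into the abdominal cavity and then PBS (vehicle group) or IL-33 at 20 μg/kg (IL-33 treatment group) by the same route every 2 days. Each tumor contained MFC cells, host stroma and host leukocytes together, so that in such bulk RNA fewer cells of a type and less RNA per cell cannot be told apart. The labels do not tie tumors to mice. For this model the methods give fewer mice per group than tumors sequenced, although a survival experiment in the appendix used more. P values therefore measure only the spread between these samples, and could be too small if tumors shared a mouse.

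Removal of dying cells, or efferocytosis, begins when phosphatidylserine appears on the outside of an apoptotic cell. The TAM receptor tyrosine kinases Mertk, Axl and Tyro3 recognise it through the bridging proteins Gas6 and protein S (Pros1), Mfge8 links it to integrins, and Cd36 is a scavenger receptor that binds apoptotic cells and lipids. Cd47, present on most cells including tumor cells, engages Sirpa on macrophages and inhibits engulfment, and Itgam (CD11b) is the integrin chain of the complement receptor of macrophages, neutrophils and other myeloid cells.

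Tumors differed in composition, and a pair of libraries stood apart. Libraries held 14139268 to 24290794 counts in the vehicle group and 16569613 to 24288893 with IL-33, and no member had fewer than 26 counts in any tumor. IL-33 replicate 7 had summed marker levels of 3874 CPM for adipose tissue, 14491 for fibroblasts, 3563 for smooth muscle, 1658 for uterus and oviduct and 1052 for blood endothelium, where CPM is the count scaled to the total count of the tumor, and the highest sums in the other 15 tumors were 286, 6902, 370.3, 24.0 and 213 CPM. Vehicle replicate 4 had the highest summed neutrophil markers of all tumors (527 CPM) and the lowest macrophage sum of its group (1031 CPM, against 1179 to 3127 in the other vehicle tumors). Its factor in TMM, the scaling of the edgeR fits, was 0.64, so TMM-scaled levels of this tumor are higher than CPM. In mean TMM-scaled log2 CPM its macrophage score was 6.32, above that of vehicle replicate 1 (6.28). All 10 macrophage markers were detected, with IL-33 sums of 742 to 3309 CPM, and epithelial markers summed to between 236.5 and 1546 CPM over all tumors, led by Krt8, while Krt5 and Krt14 were near 0. The part of these differences in the results on single genes was not tested, and log2 fold changes of single genes are therefore given with and without IL-33 replicate 7.

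None of the 10 members passed an adjusted P of 0.05 in edgeR's quasi-likelihood test with Benjamini-Hochberg adjustment over 16817 genes, a threshold that 0.0% of all genes passed. At an unadjusted P under 0.05, 1 of 10 members was higher with IL-33 (Cd36) and 0 were lower, against 9.99% of all genes tested called higher and 1.17% called lower, so the share was close to the background. DESeq2 and limma voom called 0 members after adjustment as well. At an unadjusted P under 0.05 DESeq2 gave 2 members lower, Gas6 and Mfge8, and 0 higher (1.59% and 2.52% of all genes), and voom gave 1 lower, Gas6, and 2 higher, Cd47 and Itgam (2.64% and 3.1% of all genes). In edgeR the call of Cd36 was lost without IL-33 replicate 7, without vehicle replicate 2 and without vehicle replicate 4, and Mfge8 was called lower in 5 of 16 fits that left out a tumor. Without IL-33 replicate 7 edgeR gave Gas6 lower and Itgam higher at that threshold, where 2.29% of all genes were lower and 1.83% higher, and again 0 members after adjustment. The median log2 fold change of the 10 members was 0.25 with 8 above 0, beside a median of 0.056 over all genes tested, and without IL-33 replicate 7 it was 0.14 with 6 above 0, beside −0.011.

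**Figure D1:**
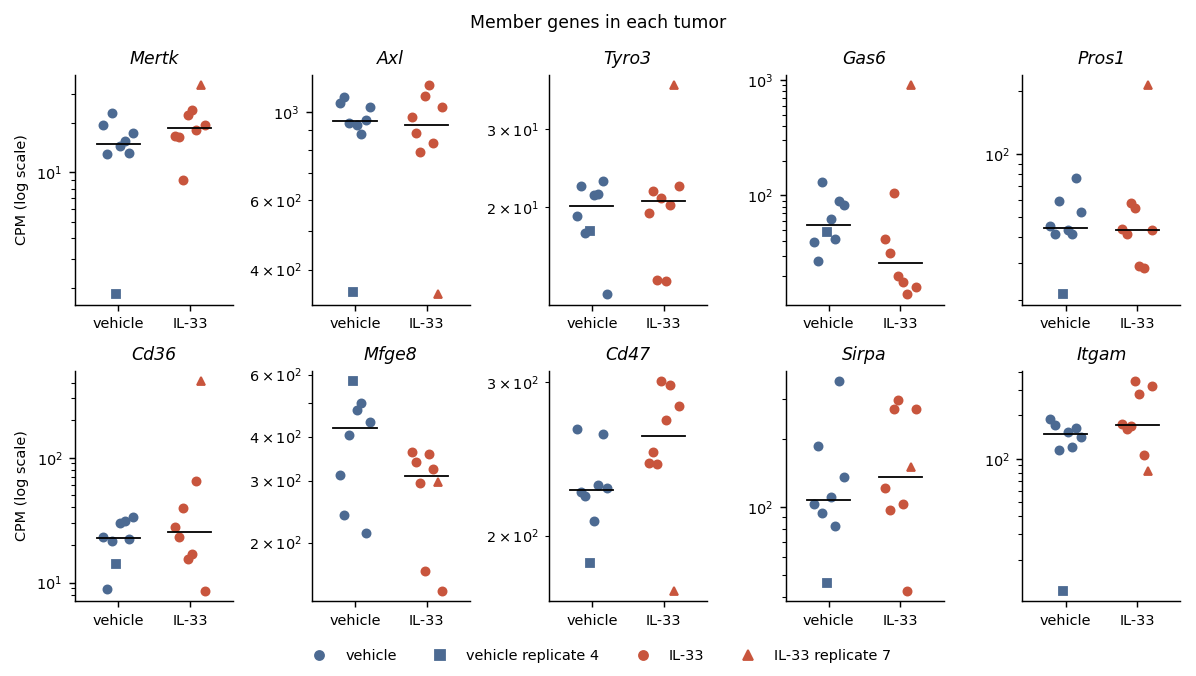
Level of each member in every tumor, in CPM on a log scale that differs between panels, with 1 point per tumor and a bar at the median of each group. Gas6, Pros1, Cd36, Tyro3 and Mertk were highest in IL-33 replicate 7 (triangle), whereas Mertk, Itgam and Pros1 were lowest in vehicle replicate 4 (square), and 7 of 8 IL-33 tumors lay above the vehicle mean for Cd47. With TMM scaling, Pros1 was lower in IL-33 replicates 5 and 6 (30.2 and 31.8 CPM) than in vehicle replicate 4 (33.4 CPM).

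Among the TAM receptors, Axl was by far the most abundant, and none of the 3 separated the groups. Mertk (ENSMUSG00000014361, GRCm38 chr2:128698956-128802894, plus strand), the receptor most tied to macrophage efferocytosis, ranged from 1.84 over a median of 15.0 to 23.0 CPM in vehicle tumors and from 9.02 over 18.7 to 33.8 CPM in IL-33 tumors. The groups overlapped, since only 2 IL-33 tumors lay above every vehicle tumor, although 7 of 8 lay above the vehicle mean. Mean levels were 14.7 ± 6.19 CPM (SD, n = 8) and 19.9 ± 7.18 CPM (SD, n = 8). In edgeR the log2 fold change was 0.39 with a standard error of 0.30 (adjusted P = 0.68), and the exact permutation test over 12870 assignments of the tumors gave P = 0.196. The lowest value by a wide margin was vehicle replicate 4, and without it the log2 fold change was 0.23 (edgeR adjusted P = 0.841). It was 0.30 without IL-33 replicate 7, where Mertk was highest, with a standard error of 0.30.

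Axl (ENSMUSG00000002602, chr7:25757273-25788705, minus strand), a receptor also made by many tumor and stromal cells, reached 352 to 1089 CPM in vehicle tumors with a median of 946.5 CPM, and 347 to 1168 CPM in IL-33 tumors with a median of 925 CPM. In each group a single tumor lay far below the rest, at 352 CPM in vehicle replicate 4 and at 347 CPM in replicate 7 of the IL-33 group, while the other 14 tumors kept between 791 and 1168 CPM. Its log2 fold change was −0.046 with a standard error of 0.22 (edgeR adjusted P = 0.971), and the exact permutation P was 0.859. It became 0.094 with a standard error of 0.14 when IL-33 replicate 7 was left out. Tyro3 (ENSMUSG00000027298, chr2:119797733-119818104, plus strand), the TAM receptor best known from the nervous system, had 12.8 to 22.9 CPM in vehicle tumors and 13.7 to 22.4 CPM in 7 IL-33 tumors, with medians of 20.2 and 20.7 CPM over all 8 of each group. IL-33 replicate 7 alone was higher, at 37.6 CPM. In TMM-scaled CPM that tumor had 30.2 and vehicle replicate 4 had 27.6, against at most 22.7 in the other tumors. The log2 fold change of Tyro3 was 0.0037 with a standard error of 0.18 (edgeR adjusted P = 0.998), and without IL-33 replicate 7 it was −0.10 with a standard error of 0.17.

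Both ligands were highest in a single tumor, IL-33 replicate 7, and the sign of their change in the edgeR fit turned without it. Gas6, the vitamin K dependent ligand of all TAM receptors, had 39.3, 27.0, 130.5, 48.4, 62.4, 42.2, 89.5 and 82.9 CPM in vehicle replicates 1 to 8. In IL-33 replicates 1 to 8 it had 41.9, 31.9, 105, 20, 17.7, 13.9, 907 and 15.9 CPM. Thus 4 IL-33 tumors lay below every vehicle tumor, while IL-33 replicate 7 lay above all of them. The group means were 65.3 ± 34.1 CPM (SD, n = 8) for vehicle and 144 ± 309.6 CPM (SD, n = 8) for IL-33, and the latter was 35.2 ± 32.5 CPM (SD, n = 7) without IL-33 replicate 7. The sign of the edgeR fit followed that tumor, whereas the permutation test, DESeq2 and limma voom gave negative values with all tumors too. With IL-33 replicate 7 the edgeR log2 fold change was 0.86 with a standard error of 0.77 (adjusted P = 0.74), and without it −0.95 with a standard error of 0.43 (an unadjusted P of 0.0442, adjusted P = 0.964). Without both that tumor and vehicle replicate 4 the edgeR value was −0.92 (an unadjusted P of 0.065). The exact permutation test, which works on log2(CPM + 0.5), gave a difference of −0.45 (P = 0.601) with all tumors and −1.08 (P = 0.0365, over 6435 assignments) without IL-33 replicate 7. DESeq2, which replaced the count of 15912 in IL-33 replicate 7 by 1040 as an extreme value, gave −0.88 (an unadjusted P of 0.0338, adjusted P = 1.0), and limma voom, which gave that tumor a weight of 0.0774, gave −1.14 (an unadjusted P of 0.00778, adjusted P = 0.766). IL-33 replicate 7 is also the tumor with the highest fibroblast, smooth muscle and endothelial marker sums.

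Pros1, which encodes protein S, a plasma anticoagulant that also binds Tyro3 and Mertk, ranged from 21.4 over a median of 44.4 to 76.8 CPM with vehicle and from 28.4 over 43.4 to 214 CPM with IL-33. Medians were thus within 1 CPM of each other, and again IL-33 replicate 7 stood above, since the next highest IL-33 tumor had 58.6 CPM. Pros1 had a log2 fold change of 0.28 with a standard error of 0.32 (edgeR adjusted P = 0.812), and of −0.19 with a standard error of 0.17 without that tumor (adjusted P = 0.964). Across tumors the ligands varied together, with a Spearman rho of Gas6 and Pros1 of 0.74 over 16 tumors and 0.69 over 15, the highest of all pairs of members with all tumors, given as a description.

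The promoters of both ligands are shown, from 250 bases before to 50 bases after the annotated start (RefSeq, GRCm38.p6). Matches to the GC box GGGCGG on either strand are in capitals, overlapping matches included. Any link of these sequences to the shared variation of the ligands was not tested. The window of Gas6 (ENSMUSG00000031451, gene at chr8:13465374-13494490, minus strand) is chr8:13494486-13494785 and that of Pros1 (ENSMUSG00000022912, gene at chr16:62854307-62929346, plus strand) is chr16:62854057-62854356.
Gas6: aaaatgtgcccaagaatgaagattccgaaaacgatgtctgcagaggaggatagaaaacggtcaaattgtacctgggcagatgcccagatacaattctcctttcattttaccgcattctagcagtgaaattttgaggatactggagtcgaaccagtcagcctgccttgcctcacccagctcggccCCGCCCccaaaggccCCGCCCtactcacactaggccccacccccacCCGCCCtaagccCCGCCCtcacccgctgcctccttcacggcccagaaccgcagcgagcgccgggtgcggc
Pros1: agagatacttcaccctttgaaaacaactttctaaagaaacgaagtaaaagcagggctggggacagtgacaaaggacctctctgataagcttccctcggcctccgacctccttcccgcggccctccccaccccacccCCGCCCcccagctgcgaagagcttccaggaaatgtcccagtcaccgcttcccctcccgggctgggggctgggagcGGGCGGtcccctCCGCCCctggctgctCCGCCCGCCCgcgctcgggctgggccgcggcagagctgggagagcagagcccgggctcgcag
Gas6 held 4 matches and Pros1 held 5. A GC box, the short motif bound by Sp-family factors, was present in all 9 members found in the promoter table and in 35.7% of the 32851 promoters of the same length. GAGGAA, the core recognised by the myeloid factor PU.1, was not found in either ligand's window on either strand.

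Mfge8 had a lower mean in IL-33 tumors, without passing the adjustment, whereas the higher mean of Cd36 rested mostly on IL-33 replicate 7. Mfge8 (ENSMUSG00000030605, chr7:79133768-79149060, minus strand), the milk fat globule protein that tethers phosphatidylserine to integrins, ranged from 213 over a median of 423 to 574 CPM in vehicle tumors and from 146 over 310.1 to 362 CPM in IL-33 tumors. All 8 IL-33 tumors lay below the vehicle mean, and 2 lay below every vehicle tumor, but the groups overlapped between 213 and 362 CPM. The means were 395 ± 128.5 CPM (SD, n = 8) and 286 ± 83.7 CPM (SD, n = 8). The fitted log2 fold change was −0.61 with a standard error of 0.30 (edgeR adjusted P = 0.46), the exact permutation P was 0.0965, and leaving out each tumor in turn kept the fitted change between −0.72 and −0.37. The smallest change was obtained without vehicle replicate 4, which had the highest Mfge8 level (edgeR adjusted P = 0.737 without it). IL-33 replicate 7 did not stand apart here, at 297 CPM, and without it the change was −0.58.

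Cd36 (ENSMUSG00000002944, chr5:17781690-17888801, minus strand), which also takes up fatty acids in adipocytes and endothelium, had 23.1, 8.89, 21.7, 14.0, 29.9, 31.0, 22.3 and 33.6 CPM in vehicle replicates 1 to 8. In IL-33 replicates 1 to 8 it had 27.7, 23.3, 39.8, 15.4, 17.0, 65.6, 409 and 8.65 CPM. Of the IL-33 tumors, 4 lay within the vehicle range, 3 above it and 1 below it. The log2 fold change of 1.49 with a standard error of 0.64 (an unadjusted edgeR P of 0.0315, adjusted P = 0.418) came with an exact permutation P of 0.378. Without IL-33 replicate 7, whose adipose marker sum was 3874 CPM against at most 286 CPM in the other tumors, the change was 0.30 with a standard error of 0.38 (adjusted P = 0.964). DESeq2 replaced the count of 7178 in that tumor by 513 and gave 0.26 (adjusted P = 1.0), and limma voom gave −0.21 (adjusted P = 0.996).

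Cd47 and Sirpa, the pair that restrains engulfment, differed in how widely their levels spread between tumors. Cd47 (ENSMUSG00000055447, chr16:49800533-49915010, plus strand) was held within a narrow range, from 186 over a median of 225.5 to 265 CPM with vehicle and from 173 over 260.5 to 301 CPM with IL-33. Among IL-33 tumors, 7 of 8 lay above the vehicle mean and 4 above every vehicle tumor, and the remaining one, IL-33 replicate 7, lay below every vehicle tumor. This order depended on the scaling. In TMM-scaled CPM vehicle replicate 4, the lowest vehicle tumor in CPM, had the highest level of its group (290.7 CPM), and only IL-33 replicate 6 (333 CPM) lay above every vehicle tumor. With all tumors the log2 fold change was 0.10 with a standard error of 0.15 (edgeR adjusted P = 0.871). The exact permutation test gave a difference of 0.16 on the log2 scale in CPM (P = 0.15) and of 0.07 in TMM-scaled CPM (P = 0.666). Without IL-33 replicate 7 the means were 228 ± 25.9 CPM (SD, n = 8) and 269 ± 25.4 CPM (SD, n = 7), and the exact permutation test in CPM gave a difference of 0.24 with P = 0.00901. The edgeR fit of the same 15 tumors, with TMM scaling, gave 0.19 with a standard error of 0.11 (an unadjusted P of 0.0885, adjusted P = 0.964). With vehicle replicate 4 left out as well, edgeR gave 0.24 (an unadjusted P of 0.0152). In limma voom with all tumors the change was 0.22 (an unadjusted P of 0.0126, adjusted P = 0.766). Neither passed the adjustment.

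Sirpa (ENSMUSG00000037902, chr2:129592835-129632228, plus strand), an inhibitory receptor of macrophages, dendritic cells and neurons, varied widely within both groups. It ranged from 46.0 over a median of 107 to 359 CPM in vehicle tumors and from 42.8 over 136 to 298 CPM in IL-33 tumors. No IL-33 tumor lay above the vehicle range, 4 of 8 lay above the vehicle mean, and the lowest tumor of each group had a similar level. The groups differed by a log2 fold change of 0.21 with a standard error of 0.37 (edgeR adjusted P = 0.897, exact permutation P = 0.55). Single tumors moved this value. It was 0.55 when the highest tumor, vehicle replicate 7, was left out, 0.068 when IL-33 replicate 4 was, and 0.28 when IL-33 replicate 7 was, and none of the fits without a tumor gave an unadjusted P below 0.113. Sirpa has the near-identical relatives Sirpb1a, Sirpb1b and Sirpb1c, which were counted separately at 1.84 to 55.0, 0.969 to 17.5 and 4.62 to 67.7 CPM, and reads shared between them could have been split or lost.

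Itgam (ENSMUSG00000030786, chr7:128062640-128118491, plus strand) had 190.0, 172, 116, 12.2, 154, 120.4, 165 and 143 CPM in vehicle replicates 1 to 8 and 175, 162, 169, 345, 284, 107, 82.1 and 320.4 CPM in IL-33 replicates 1 to 8. The groups overlapped through 5 IL-33 tumors, whereas IL-33 replicates 4, 5 and 8 lay above every vehicle tumor. Vehicle replicate 4 was far below the next vehicle tumor (12.2 against 116 CPM), although the markers of neutrophils, a cell type that carries Itgam, were highest there. The fitted log2 fold change was 0.60 with a standard error of 0.37 (edgeR adjusted P = 0.583, exact permutation P = 0.164). It was 0.74 with a standard error of 0.34 without IL-33 replicate 7 (an unadjusted edgeR P of 0.0446, adjusted P = 0.964, exact permutation P = 0.0642), and 0.44 without vehicle replicate 4 (adjusted P = 0.682). Without both tumors it was 0.57, with an unadjusted edgeR P of 0.0152 that did not pass the adjustment. In the GENCODE M21 annotation 68.7% of the exon bases of Itgam are shared with Gm49368 on the same strand, which had only 3 to 25 counts per tumor. Reads on those bases may not have been assigned to either gene, which was not tested, so the level of Itgam relative to other genes is uncertain.

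The promoter of Itgam (chr7:128062390-128062689, plus strand) is shown because it holds 3 matches to the PU.1 core GAGGAA, the most of any member, beside 1 GC box, all in capitals as found on either strand.
Itgam: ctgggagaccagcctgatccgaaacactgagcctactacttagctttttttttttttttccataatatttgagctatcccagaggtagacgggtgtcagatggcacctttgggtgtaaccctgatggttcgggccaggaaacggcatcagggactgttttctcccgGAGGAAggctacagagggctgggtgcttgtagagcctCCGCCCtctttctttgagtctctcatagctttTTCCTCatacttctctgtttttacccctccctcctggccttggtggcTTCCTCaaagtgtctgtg
Of the 9 members in the promoter table, 3 held the PU.1 core (Itgam, Axl and Mfge8), compared with 28.3% of all 32851 promoters. Such a match describes the letters of the window and is not a measured binding site.

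**Figure D2:**
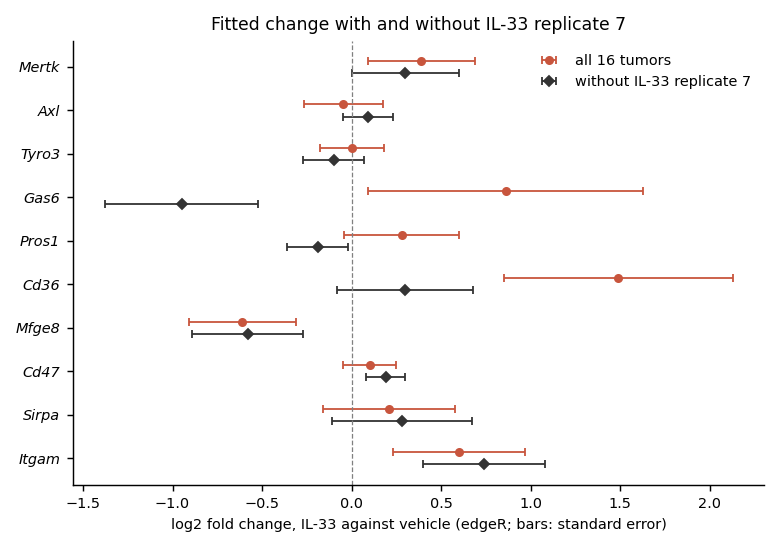
Fitted log2 fold change of each member, IL-33 against vehicle, from edgeR with all 16 tumors (red circles) and without IL-33 replicate 7 (black diamonds), with bars of 1 standard error. Gas6 moved from 0.86 to −0.95 and Cd36 from 1.49 to 0.30 when that tumor was left out, while Mfge8 stayed at −0.61 and −0.58.

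The wider pathway was examined in 67 further genes. At an unadjusted P under 0.05 in edgeR, 6 were higher with IL-33 (8.96%, against 9.99% of all genes) and 1 was lower (1.49%, against 1.17%), and 0 passed the adjustment. Their median log2 fold change was 0.073, beside 0.056 over all genes. Of the 7, 6 were highest in IL-33 replicate 7, as were 25 of the 67 genes. Without that tumor 3 were higher (4.48%, against 1.83% of all genes) and 3 lower (4.48%, against 2.29%), and 4 of the original 7 remained: Ucp2, Thbs1, Socs3 and Calr.

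Ucp2, a mitochondrial carrier known to sustain uptake by phagocytes, was the only one of these higher in 8 of 8 IL-33 tumors than the vehicle mean, at 257 ± 120.0 CPM against 146 ± 52.9 CPM (SD, n = 8 each), a log2 fold change of 0.70 (an unadjusted edgeR P of 0.006, adjusted P = 0.418). Thbs1, thrombospondin 1, a bridge between apoptotic cells and Cd36, reached 179 ± 115.5 CPM against 92.8 ± 32.3 CPM, with 7 of 8 tumors above the vehicle mean (log2 fold change 0.85, an unadjusted P of 0.0127, adjusted P = 0.418). Socs3, a feedback inhibitor of cytokine signalling, was at 157 ± 30.1 CPM against 120.5 ± 23.5 CPM (log2 fold change 0.29, an unadjusted P of 0.0246). Calr, calreticulin, which acts as an engulfment signal when exposed on dying cells, was the gene with lower counts, at 1163 ± 226 CPM against 1437 ± 149 CPM and with 7 of 8 tumors below the vehicle mean (log2 fold change −0.41, an unadjusted P of 0.033). IL-33 replicate 7 had the highest Ucp2, Thbs1 and Socs3 and the lowest Calr of its group. Without it the log2 fold changes were 0.55 for Ucp2, 0.62 for Thbs1, 0.28 for Socs3 and −0.32 for Calr.

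The other 3 genes did not pass the unadjusted threshold without IL-33 replicate 7. Cd24a, a sialoprotein that signals against engulfment, had 182 CPM in that tumor and at most 19.2 CPM in the other IL-33 tumors, and its log2 fold change went from 1.76 to 0.45 without it. Gulp1, an engulfment adaptor, had 19.9 CPM there and at most 1.53 CPM elsewhere in the group, and went from 2.05 to −0.0058. Pparg, a nuclear receptor of lipid handling that is also a defining gene of adipocytes, went from 1.01 to 0.84, with an unadjusted P of 0.0615 without that tumor. By role, 0 of 15 other engulfment receptors and 0 of 7 find-me signals and receptors had an unadjusted P under 0.05 with all tumors. The most of any role was 2 of 13, for phagosome digestion and lipid export. Over all genes 9.99% were higher and 1.17% lower at that threshold. With so few genes in each role, these counts do not set a role apart. When IL-33 replicate 7 was left out, 2 of the 15 receptors, both highest in that tumor, were lower at that threshold, beside 2.29% of all genes. They were Stab1, a scavenger receptor that binds phosphatidylserine, and Itgb5, an integrin chain of a receptor for Mfge8. The log2 fold change of Stab1 went from −0.39 to −0.92 (an unadjusted P of 0.0189), and that of Itgb5 from −0.20 to −0.32 (an unadjusted P of 0.026), both at an edgeR adjusted P of 0.964.

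Levels between genes were compared as CPM relative to each kilobase of exon. By the median over 16 tumors the order was Axl at 188, Mfge8 at 70.5, Cd47 at 38.5, Itgam at 32.5, Sirpa at 23.7, Gas6 at 16.5, Pros1 at 10.6, Cd36 at 6.46, Mertk at 3.91 and Tyro3 at 3.34. Axl thus exceeded the macrophage receptor Mertk in every tumor, and it exceeded its neighbour Mfge8 in 15 of 16. The order of Mfge8 and Cd47 held in 14 tumors, that of Cd47 and Itgam in 13, and that of Pros1 and Cd36 in 14. Itgam and Sirpa, Sirpa and Gas6, and Mertk and Tyro3 kept their order in only 11 of 16 tumors each, and Gas6 and Pros1 as well as Cd36 and Mertk in 12, so these neighbours lay within the spread of the tumors. Over the exon bases not shared with Gm49368 alone, the median of Itgam would be 104, if only those bases yielded reads.

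**Figure D3:**
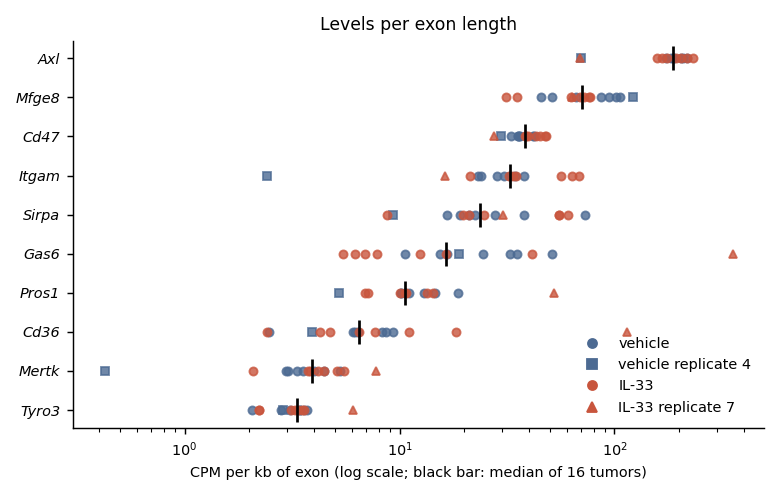
Levels of the 10 members on 1 scale, as CPM relative to each kilobase of exon (log axis), with 1 point per tumor and a black bar at the median of the 16 tumors. Axl, at a median of 188, stood above the other members, and Gas6 spread most widely upward, to 355.9 in IL-33 replicate 7.

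Ratios of members within a tumor do not depend on the scaling between tumors, and 6 were compared by exact permutation tests, unadjusted. The log2 ratio of Axl to Mertk counts was 6.12 ± 0.65 in vehicle and 5.49 ± 0.91 in IL-33 tumors (SD, n = 8 each), a difference of −0.62 (exact P = 0.138). Its extremes were the tumors that stood apart, 7.55 in the vehicle replicate 4 tumor and 3.36 in the replicate 7 tumor of the IL-33 group, and the difference was −0.32 without the latter (exact P = 0.285). Without IL-33 replicate 3 it was −0.76 (exact P = 0.037).

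The ligand ratio, Gas6 to Pros1, was 0.36 ± 0.63 in vehicle and −0.27 ± 1.22 in IL-33 tumors, a difference of −0.63 (exact permutation P = 0.213). In raw counts, not corrected for exon length, Gas6 exceeded Pros1 in 6 of 8 vehicle tumors and in 2 of 8 IL-33 tumors, of which one was IL-33 replicate 7 at 2.09. Without it the difference was −0.97 (exact P = 0.0263, unadjusted). The Cd47 to Sirpa ratio, which sets the restraining ligand against its receptor, was 0.94 ± 0.77 and 0.83 ± 1.01 (exact P = 0.807), with its lowest value, −0.46, in vehicle replicate 7 and its highest, 2.80, in replicate 6 of the IL-33 group. Per macrophage gene, Mertk to Adgre1 differed by 0.26 (exact P = 0.599), Sirpa to Csf1r by −0.021 (P = 0.918) and Itgam to its partner chain Itgb2 by 0.21 (P = 0.359).

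**Figure D4:**
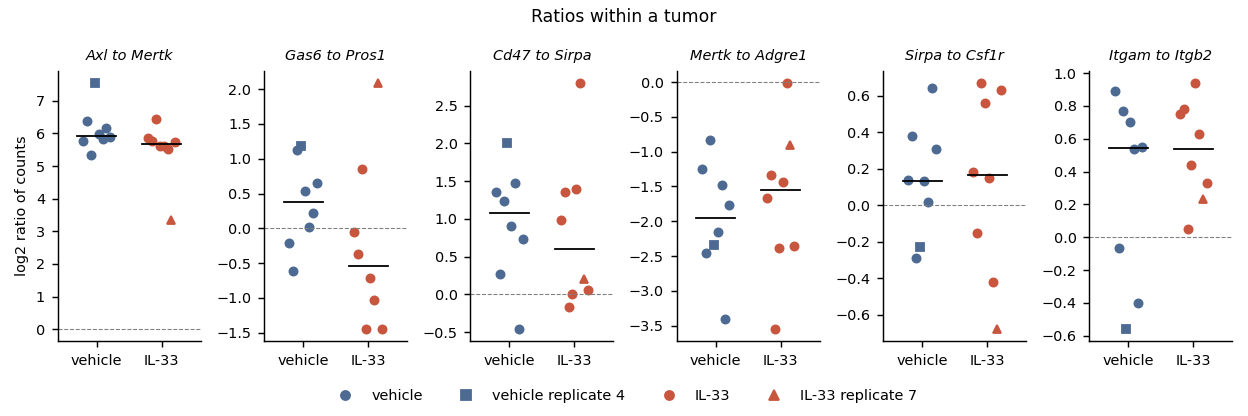
Log2 ratio of the counts of each pair of genes in every tumor, with a bar at the median of each group and a dashed line at equal counts. The Gas6 to Pros1 ratio was at most −0.058 in 6 of 8 IL-33 tumors, and Axl counts exceeded Mertk counts in all tumors, least in IL-33 replicate 7 (3.36).

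Finally, members were set against marker lists of macrophages, neutrophils, blood endothelium and fibroblasts over the 16 tumors, in 40 relations with adjusted permutation P values. All points share the scaling of their tumor. Levels of the ligands followed the fibroblast list. Gas6 gave Pearson r = 0.91 (permutation P = 1e-05, adjusted P = 0.0002) and Spearman rho = 0.85 (permutation P = 9e-05), and Pros1 gave r = 0.92 (permutation P = 1e-05, adjusted P = 0.0002) and rho = 0.86 (permutation P = 7e-05), where 1e-05 is the smallest P that the resamples can give. Without IL-33 replicate 7 r was 0.82 for Gas6 and 0.85 for Pros1, and without the 2 tumors farthest in list score it was 0.77 and 0.85. Within the groups r was 0.63 in vehicle and 0.99 in IL-33 tumors for Gas6, and 0.93 and 0.94 for Pros1. Both ligands also followed the endothelial list (r = 0.84 and 0.88, adjusted permutation P = 0.0044 and 0.00552), but their rho of 0.62 and 0.55 did not pass (adjusted permutation P = 0.0503 and 0.113), and at r = 0.62 and 0.58 without IL-33 replicate 7 neither passed the adjustment (both 0.076).

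Sirpa and Pros1 followed the macrophage list. Sirpa had r = 0.75 and rho = 0.66 (permutation P = 0.00065 and 0.00673, adjusted P = 0.00552 and 0.0385). It was r = 0.77 without IL-33 replicate 7, and 0.74 and 0.77 within the vehicle and IL-33 groups. Without vehicle replicate 7 and IL-33 replicate 3, the tumors farthest in macrophage score, r was 0.56 (permutation P = 0.0385, adjusted P = 0.193), so the relation did not pass the adjustment without those tumors. Pros1 passed by rank alone, with rho = 0.74 and r = 0.58 (adjusted permutation P = 0.0144 and 0.0825). Its r was 0.79 without IL-33 replicate 7 (adjusted permutation P = 0.0056), with scaling by the total count 0.74 (adjusted P = 0.006), and without the 2 farthest tumors 0.62 (adjusted P = 0.193). Sirpa also went against the neutrophil list, with r = −0.68 and rho = −0.76 (permutation P = 0.00366 and 0.00098, adjusted P = 0.0183 and 0.0131) and r = −0.73 without the 2 farthest tumors (adjusted P = 0.0452).

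Mertk and Itgam, although known from macrophages, showed no such relation to the macrophage list, with r = −0.064 for Mertk (permutation P = 0.785) and 0.15 for Itgam (permutation P = 0.549). Axl went against the endothelial list (r = −0.90, rho = −0.69, adjusted permutation P = 0.00657 and 0.0275), at r = −0.58 without IL-33 replicate 7 (adjusted P = 0.076). Cd47 went against the fibroblast list (r = −0.78, rho = −0.65, adjusted permutation P = 0.00657 and 0.0422), at r = −0.53 without that tumor (adjusted P = 0.115) and −0.47 with scaling by the total count alone. Pros1 likewise went against the neutrophil list by rank (rho = −0.73, adjusted permutation P = 0.0177), but not by r (−0.52, adjusted P = 0.123). Thus by r 8 of 40 relations passed the adjustment, 5 positive and 3 negative, and by rho 8 passed, 4 positive and 4 negative, of which 6 passed by both. Of those passing by r, 3, those of Gas6 and Pros1 with fibroblasts and of Sirpa with neutrophils, also passed both without IL-33 replicate 7 and without the 2 farthest tumors. The 32 that did not pass by r had values between −0.67 and 0.74.

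**Figure D5:**
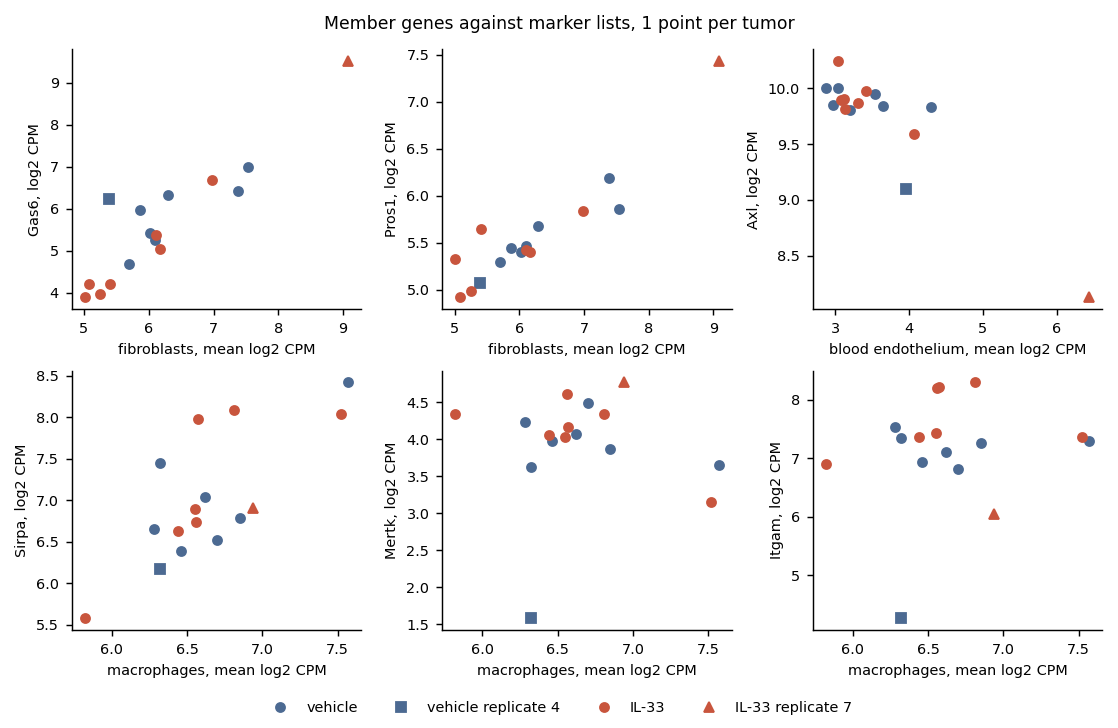
Level of a member (log2 CPM, vertical axis) against the mean log2 CPM of a marker list (horizontal axis), with 1 point per tumor. Gas6 and Pros1 were higher where the fibroblast list was higher (r = 0.91 and 0.92), Sirpa with the macrophage list (r = 0.75), Mertk and Itgam showed no such slope, and the relation of Axl to blood endothelium leaned on IL-33 replicate 7 at the lower right.

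The genes whose levels ordered the tumors most like each member were taken as the 2 with the highest Spearman rho over 16 tumors, as a description. For Pros1 they were Tek, an endothelial receptor, and Fbn1, a matrix protein (both 0.94), for Gas6 Cyp2j6 (0.97) and Npl (0.96), and for Sirpa Sema4d and Fgd2 (both 0.96). Mertk was nearest to Sort1 and Setbp1 (both 0.94), Axl to the replication factor gene Clspn (0.94) and the formin gene Diaph3 (0.93), and Mfge8 to Ext2 (0.96). Itgam was nearest to Sla and Gpr35 (both 0.89), Cd36 to Zfyve21 (0.88) and Btnl9 (0.84), Cd47 to Taf1d (0.86) and Mcl1 (0.81), and Tyro3 to Vps18 (0.82) and Pcgf2 (0.81). Within the members, Mfge8 and Sirpa ran most strongly against each other (rho = −0.74), and Axl ran with Itgam (0.65).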

How the data were processed

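Poly(A)-selected RNA of 16 abdominal tumors was sequenced, and the authors deposited raw read counts on each gene for every tumor, without normalization. The submitters' processing notes name HISAT2, featureCounts and mm10. Tool versions, annotation release and strand setting are not given in the sources used here. GENCODE M21 (GRCm38) gave symbols for 22255 of 22298 identifiers, coordinates and exon lengths. Groups came from the sample labels. The 16817 genes with at least 10 counts over all tumors were tested in edgeR 4.0.16 (R 4.3.3) with TMM normalization, quasi-likelihood F tests and Benjamini-Hochberg adjustment. Standard errors were obtained from the test statistic. DESeq2 1.42.0 and limma 3.58.1 voom with quality weights were alternatives, beside other scalings, filterByExpr, no filter, the replicate number as a block, and leaving out each tumor. DESeq2 without IL-33 replicate 7, the fit without both IL-33 replicate 7 and vehicle replicate 4, and the list of 7 epithelial markers were added after the data had been seen. Exact permutation tests (two-sided, all 12870 assignments, smallest P 0.000155) used log2(CPM + 0.5), and correlations used 100000 resamples, or all 40320 orders within a group of 8, on TMM-scaled log2 CPM with a prior count of 2. Total counts were 14139268 to 24290794, and the part of counting error was not tested. The closest pair of tumors differed by a chi-square of 8.79 per degree of freedom, so no library was taken as a copy of another. The named genes were the 10 members, pathway genes with an unadjusted P under 0.05, and the 2 genes nearest to each member, of which 1 is not reported here. Members and lists were chosen with earlier results of these data known. Promoters are those of RefSeq. Each model was run on simulated counts in which 200 genes were changed. Those counts held no tumor that stood apart as IL-33 replicate 7 did. The share of changes recovered is not reported here, so the size of change that these tests could detect is not given.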

Additional observations from a re-analysis of the deposited data

Results flagged for a closer look

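In 20 groups of 8 values, 9 had a tumor whose gap to its nearest neighbour exceeded Dixon's limit for 8 samples. The gap was taken as a share of the group's range. Chance passes this limit in about 1 in 20 groups only where values are independent and normally distributed. These groups were untransformed CPM values of genes read from the same libraries, so the 9 cannot be set against that rate. The 9 values came from 3 libraries. IL-33 replicate 7 stood apart for Gas6 (906.7 CPM, next 105.4), Cd36 (409 CPM, next 65.6), Pros1 (213.7 CPM, next 58.6), Tyro3 (37.6 CPM, next 22.4), Axl (347.1 CPM, next 790.9) and Cd47 (172.9 CPM, next 241.5). The first 4 of these were high and Axl and Cd47 were low. Vehicle replicate 4 stood apart low for Axl (351.8 CPM, next 877.7) and Itgam (12.2 CPM, next 116.0). Vehicle replicate 7 stood apart high for Sirpa (358.8 CPM, next 185.6), and its macrophage marker sum of 3127 CPM was the highest of the vehicle group. In untransformed CPM, Mertk and Mfge8 had no tumor past the limit in either group. The limit was not applied to TMM-scaled CPM, the scaling of the edgeR fits. On that scale vehicle replicate 4 had 897.4 CPM for Mfge8 (next 507.3) and 2.87 CPM for Mertk (next 12.2). IL-33 replicate 7 had 139.2 CPM for Cd47 (next 235.6) and 30.2 CPM for Tyro3 (next 22.7). Without vehicle replicate 4 the edgeR log2 fold change went from −0.61 to −0.37 for Mfge8 and from 0.39 to 0.23 for Mertk.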

How the results depend on the processing

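Adjusted calls were 0 of 10 members in every alternative run. Without each tumor in turn the log2 fold change lay between −0.13 and 0.094 for Axl, −0.10 and 0.071 for Tyro3, −0.95 and 1.07 for Gas6 and −0.19 and 0.39 for Pros1, and the difference in mean log2(CPM + 0.5) between −0.21 and 0.16 for Axl, −0.039 and 0.16 for Tyro3 and −0.13 and 0.29 for Pros1. Among the opposite signs, DESeq2 without IL-33 replicate 7 gave 0.087 for Axl, −0.11 for Tyro3, −0.96 for Gas6 and −0.20 for Pros1. Without both that tumor and vehicle replicate 4 the values were 0.014, −0.022, −0.92 and −0.25. Voom gave 0.028 for Axl, −1.14 for Gas6, −0.18 for Pros1 and −0.21 for Cd36, DESeq2 gave −0.88 for Gas6, and TMM-scaled CPM gave −0.0071 for Tyro3.

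Same-numbered tumors did not deviate together (correlations of −0.318 to 0.351, with 1 of 8 numbers matching best). The labels state no pairing, and such correlations cannot exclude one. With the replicate block Gas6 was −0.68 and Tyro3 −0.0072, and 246 genes were higher and 72 lower at an unadjusted P under 0.05, with 0 lower in the pathway list.

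The 1680 higher genes became 424 in DESeq2, 286 in DESeq2 without IL-33 replicate 7, 330 without both tumors, 498 with filterByExpr and 522 in voom, and the 196 lower genes became 392, 329 and 444 in DESeq2 without IL-33 replicate 7, without both tumors and in voom. Leaving out each tumor gave 289 to 1902 higher and 111 to 362 lower, and 3 to 9 higher and 0 to 3 lower pathway genes. DESeq2 without IL-33 replicate 7 adjusted to 1 gene, Alas2. Pathway genes were 3 higher and 4 lower there, 2 and 4 without both tumors, 2 lower in DESeq2 and 3 lower in voom. Ratios without each tumor ranged from −0.76 to −0.32 for Axl to Mertk, −0.97 to −0.46 for Gas6 to Pros1, −0.39 to 0.041 for Cd47 to Sirpa, −0.10 to 0.093 for Sirpa to Csf1r, 0.013 (without IL-33 replicate 6) to 0.52 (without IL-33 replicate 3) for Mertk to Adgre1 and 0.091 (without vehicle replicate 4) to 0.30 (without vehicle replicate 1) for Itgam to Itgb2.

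Members past the adjusted P of r with the macrophage list (1) became 2 without IL-33 replicate 7 and with total-count scaling, and 0 without the 2 farthest tumors or within either group. With the neutrophil list (1) they became 2 without IL-33 replicate 7 and 0 within either group, with the endothelial list (3) 0 without IL-33 replicate 7, without the 2 farthest tumors or in the vehicle group, and with the fibroblast list (3) 1 in the vehicle group. The r of Mertk with macrophages became 0.27 without the 2 farthest tumors, 0.18 in the vehicle group, −0.50 in the IL-33 group and 0.33 with total-count scaling. Apart from the left-out libraries, the cause of these shifts was not tested. The lowest count of a member was 26, for Mertk in vehicle replicate 4, and the part of depth was not tested.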
